A study of Mus musculus with 24 samples.

Results

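Maternal-effect genes of the subcortical maternal complex and its partners were followed in mouse blastocysts whose mother, father or neither parent was obese. The 8 members were taken as listed by gene symbol, namely Nlrp5, Ooep, Tle6, Khdc3, Padi6, Zbed3, Dppa3 and Npm2, out of 19938 genes with a symbol of their own on the array. Maternal-effect genes are transcribed in the growing oocyte, and their products carry the embryo through the first cleavages. The subcortical maternal complex is a protein assembly under the surface of the egg and of early blastomeres. Its core is made of NLRP5 (also called MATER), OOEP (FLOPED), TLE6 and KHDC3 (FILIA). Embryos of mothers without NLRP5, OOEP or TLE6 arrest early in cleavage.

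The other members act beside this core. PADI6, a member of the peptidylarginine deiminase family, is needed for the cytoplasmic lattices of the egg. ZBED3 is a zinc finger protein that binds the complex. DPPA3 (Stella) shields the maternal genome from loss of DNA methylation after fertilization and is made again by the inner cell mass and by germ cells. NPM2 is the oocyte nucleoplasmin, a histone chaperone that acts on sperm chromatin. Most maternal mRNA is cleared by the time the embryonic genome is active, so a transcript seen in a blastocyst can be a remnant or newly made, and the arrays do not tell these apart.

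The embryos came from NMRI mice (RjHan:NMRI), an outbred stock. Weanlings aged 3 weeks were placed for 9 weeks either on a calorie-rich diet high in fat (HFD) or on its control diet (CD), and mating took place at 12 weeks, when every animal got the control diet. Blastocysts were collected at day 3.5 post coitum, and each array held the lysate of 3 embryos of 1 sex and 1 mother. The 6 groups of 4 pools were female (XX) and male (XY) embryos of lean parents, of an obese father with a lean mother, and of an obese mother with a lean father. The labels name 7 animals on the high-fat and 14 on the control diet and do not say which parents a pool came from, so pools may share a mother. The p-values below therefore measure the spread between these pools, which may be partly technical.

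All levels are log2 intensities as deposited, and the number of arrays limits their precision. The median of the whole table was 2.56. Testing was limited to the 13311 genes above that median on 4 arrays or more. Array means lay between 2.82 and 2.86, but their signal spread, meaning the SD across all probe sets of 1 array, ran from 1.27 to 1.81. Arrays 22 (obese father, XX) and 12 (obese father, XY) had the widest. No array duplicated another, the highest correlation between 2 arrays being 0.943. Of 8 trophectoderm markers 7 exceeded the table median on all 24 arrays, as did 6 of 8 markers of the inner cell mass and epiblast and 5 of 8 of primitive endoderm. The table median is no detection limit: 5 of 8 sperm markers and 4 of 11 measured cumulus and granulosa cell markers, Prm1 and Amh among them, also exceeded it on all arrays. Of 5 measured blood markers and 7 of uterine and oviduct epithelium, 0 and 1 did so.

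In the gene table of RefSeq (GRCm38.p6), several members lie beside a relative. Nlrp5 on chromosome 7 neighbours Nlrp4e, Tle6 on chromosome 10 neighbours Tle2, and Padi6 on chromosome 4 neighbours Padi4. Ooep on chromosome 9 lies next to Dppa5a, which like Ooep and Khdc3 encodes a KH-type protein, while Khdc3 sits elsewhere on the same chromosome between Rab27a and Rsl24d1. Dppa3 on chromosome 6 lies between Gdf3 and the pluripotency gene Nanog. Zbed3 is on chromosome 13 and Npm2 on chromosome 14.

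The 250 bases upstream of the outermost start were read from the RefSeq promoter table (GRCm38.p6), which had an entry for 6 of the 8 members, all but Dppa3 and Npm2. Shown here are Khdc3 and Ooep, the core members whose levels were above the table median on every array, and Padi6. Across arrays Padi6 went opposite to Khdc3 (r = -0.724), while its relation with Ooep did not pass (-0.319, permutation adjusted p = 0.210). Capitals mark the E-box CANNTG, the letters bound by basic helix-loop-helix factors such as the oocyte factor FIGLA.
Khdc3, chr9:73102148-73102397, plus strand: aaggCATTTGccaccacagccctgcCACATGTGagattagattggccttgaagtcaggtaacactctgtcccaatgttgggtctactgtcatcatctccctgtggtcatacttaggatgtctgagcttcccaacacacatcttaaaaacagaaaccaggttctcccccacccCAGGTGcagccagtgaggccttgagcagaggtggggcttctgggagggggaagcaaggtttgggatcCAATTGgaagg
Ooep, chr9:78378589-78378838, minus strand: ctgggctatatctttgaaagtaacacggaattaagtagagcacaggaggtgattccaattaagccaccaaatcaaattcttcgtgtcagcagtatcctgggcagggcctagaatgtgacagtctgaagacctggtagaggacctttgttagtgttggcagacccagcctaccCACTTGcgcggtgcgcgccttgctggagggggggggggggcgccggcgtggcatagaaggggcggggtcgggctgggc
Padi6, chr4:140742644-140742893, minus strand: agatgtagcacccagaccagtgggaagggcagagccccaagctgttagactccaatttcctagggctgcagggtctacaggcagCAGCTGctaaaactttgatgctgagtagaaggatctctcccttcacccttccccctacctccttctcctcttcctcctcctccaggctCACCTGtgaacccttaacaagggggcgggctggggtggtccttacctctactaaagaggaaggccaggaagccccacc

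Khdc3 held 5 E-boxes, a pair of them overlapping, Zbed3 held 3, Nlrp5, Tle6 and Padi6 held 2 each, and Ooep held 1. The E-box was held by 66.1% of the 27025 windows of this length, so its presence in all 6 members is a common state. All motifs were searched on both strands. The homeobox motif TAATTG, bound by the oocyte factor NOBOX, was in the Ooep window (1 site, overlapping the CCAAT box there) and in 7.33% of all windows. CCAAT itself was in 5 of the 6 members, all but Zbed3, and in 34.5% of all windows. The GC box GGGCGG was in Nlrp5, Ooep, Tle6 and Padi6 and in 33% of all windows. A match of letters is a description of the sequence and not a measured site.

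Of the 8 members, Ooep, Khdc3 and Zbed3 exceeded the table median on all 24 arrays, Dppa3 on 23, Nlrp5 on 21, Tle6 on 13, Padi6 on 4 and Npm2 on 0. So 7 of the 8 members passed the filter and Npm2 did not. Padi6 passed with the minimum of 4 arrays, from 3 of the groups. Because each probe set has its own brightness, levels are compared below between arrays of a gene and not between genes.

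**Figure D1:**
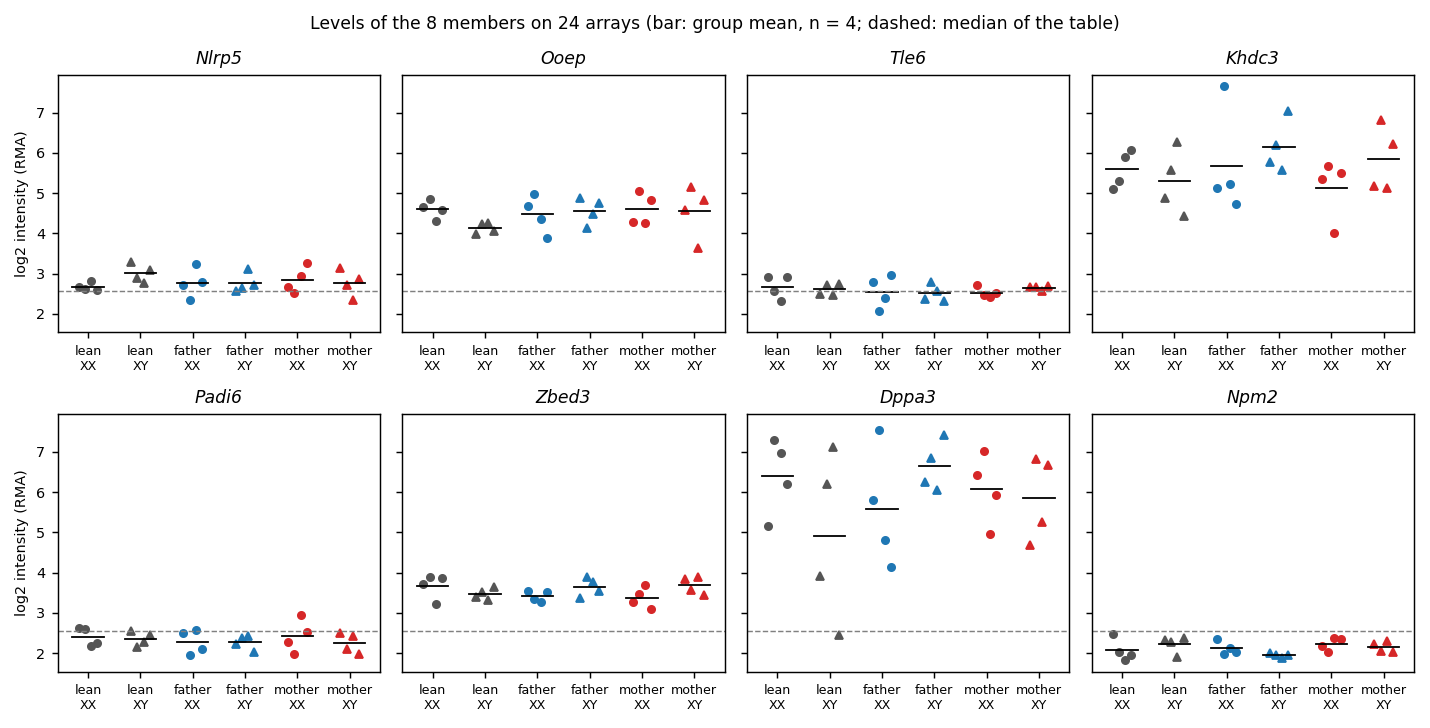
Log2 intensity of each member on every array by group (circles XX, triangles XY; grey lean parents, blue obese father, red obese mother), with the group mean as a bar and the table median of 2.56 as a dashed line. Khdc3, Ooep and Zbed3 lie above the line throughout, Npm2 lies below it throughout, and the points of the groups overlap in nearly every panel.

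Khdc3, the RNA-binding core member FILIA, which embryonic stem cells also make, varied widely between pools of the same group. In lean-parent embryos its 4 female arrays stood at 5.10, 5.29, 5.91 and 6.08 and its 4 male arrays at 4.87, 5.57, 6.26 and 4.44. With an obese father the females stood at 5.12, 7.65, 5.24 and 4.73 and the males at 5.77, 6.20, 5.58 and 7.04. With an obese mother the females stood at 5.35, 5.66, 4.00 and 5.51 and the males at 5.17, 6.82, 5.13 and 6.22. All 6 groups overlapped. The highest level was on obese-father female array 22 and the lowest on obese-mother female array 19. Group means ran from 5.13 ± 0.76 (SD, n = 4) in obese-mother females to 6.15 ± 0.65 in obese-father males, and no step between neighbouring means, at most 0.31, exceeded the larger SD of its 2 groups.

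Ooep, the small KH-domain protein FLOPED of the core, was steadier. Its lean-parent females stood at 4.66, 4.84, 4.30 and 4.58 and its lean-parent males at 3.99, 4.23, 4.27 and 4.06. With an obese father the females stood at 4.67, 4.97, 4.37 and 3.89 and the males at 4.88, 4.13, 4.47 and 4.75. With an obese mother the females stood at 4.29, 5.06, 4.25 and 4.83 and the males at 4.59, 5.15, 3.64 and 4.81. Lean-parent males lay low and close together, under every lean-parent female, while the other groups overlapped with both. The means ranked, from low to high, as lean-parent males (4.14 ± 0.13, n = 4), obese-father females, obese-mother males, obese-father males, lean-parent females and obese-mother females (4.61 ± 0.40), and 0 of the 5 steps exceeded the larger SD.

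The other core members stayed near the table median. Nlrp5, the leucine-rich repeat protein MATER, ran from 2.34 to 3.29 over the 24 arrays with a median of 2.74, and its group means lay between 2.67 ± 0.09 in lean-parent females and 3.01 ± 0.23 in lean-parent males. Tle6, a member of the Groucho family of co-repressors, ran from 2.06 to 2.96 with a median of 2.57. Its group means lay between 2.52 ± 0.21 (males of obese fathers) and 2.68 ± 0.29 (lean-parent females). For neither gene did a step between neighbouring group means exceed the larger SD.

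Padi6, of the cytoplasmic lattices, ran from 1.94 to 2.94 with a median of 2.33, and its group means from 2.25 ± 0.25 in obese-mother males to 2.43 ± 0.41 in obese-mother females. It exceeded the table median on 2 lean-parent female arrays, 1 obese-father female array and 1 obese-mother female array, and on none of the 12 male arrays. These levels are too low to say that the transcript was present. Between the sexes over all parents the fitted difference was -0.08 (SE 0.11, limma adjusted p = 0.9998).

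Zbed3, the zinc finger partner of the complex, varied little. In lean-parent embryos the females stood at 3.71, 3.89, 3.23 and 3.86 and the males at 3.38, 3.52, 3.33 and 3.64. With an obese father the females stood at 3.55, 3.34, 3.27 and 3.53 and the males at 3.37, 3.89, 3.77 and 3.55. With an obese mother the females stood at 3.26, 3.46, 3.69 and 3.10 and the males at 3.83, 3.57, 3.89 and 3.44. All groups overlapped. The 3 lowest group means were those of obese-mother females (3.38 ± 0.26, n = 4), obese-father females (3.42 ± 0.14) and lean-parent males (3.47 ± 0.14), and the 3 highest those of obese-father males (3.65 ± 0.23), lean-parent females (3.67 ± 0.31) and obese-mother males (3.68 ± 0.21), with no step above the larger SD.

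Dppa3, the protector of maternal methylation marks, had the widest range, 2.45 to 7.55. In lean-parent embryos the females stood at 5.15, 7.30, 6.96 and 6.21 and the males at 3.90, 6.20, 7.11 and 2.45. With an obese father the females stood at 5.80, 7.55, 4.81 and 4.13 and the males at 6.25, 6.83, 6.06 and 7.42. With an obese mother the females stood at 6.43, 7.02, 4.95 and 5.92 and the males at 4.67, 6.83, 5.27 and 6.67. Lean-parent males held both the lowest array of all, array 4, and an array near the top. The group means ran from 4.92 ± 2.12 in lean-parent males to 6.64 ± 0.61 in obese-father males (n = 4 each), and 0 of 5 steps between neighbours exceeded the larger SD.

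Dppa3 was the 1 member with 2 probe sets, and the values above are those of the set with the higher mean. The other set ran from 2.09 to 6.86, with group means between 3.44 ± 1.16 in obese-mother males and 3.92 ± 0.97 in lean-parent females. RefSeq also lists a pseudogene, Dppa3-ps, on the X chromosome. The annotation gives both sets the same accessions and does not say whether either also reads the pseudogene, so the level of Dppa3 is uncertain to that extent.

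Npm2, the oocyte nucleoplasmin, ran from 1.83 to 2.48 and lay below the table median on all 24 arrays. Its group means lay between 1.95 ± 0.05 in obese-father males and 2.23 ± 0.16 in obese-mother females. Since it failed the filter, its differences come from a fit of all 19938 genes.

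Offspring of an obese father were set against offspring of lean parents in each sex, the comparison that asks whether the father's diet reaches the embryo's transcriptome. In males, 0 of the 7 tested members passed in limma (adjusted p under 0.05 over all genes tested), where 0.00751% of all genes tested did, and 0 of 8 had an unadjusted p under 0.05, where 14.7% of all genes did. Dppa3 was nearest, with 4.92 ± 2.12 in lean-parent and 6.64 ± 0.61 in obese-father males, a log2 fold change of 1.72 (SE 0.83, 95% interval -0.00286 to 3.45, limma adjusted p = 0.339). The other members lay between -0.27 (Npm2) and 0.86 (Khdc3), with 4 members above and 4 below 0. The median over the 8 was 0.04, against -0.11 over all genes tested. As the samples are whole embryos, fewer cells with a transcript and less of it per cell cannot be told apart. The mean level of the 8 inner cell mass markers, a tissue that makes Dppa3, ran from 3.73 to 4.36 over the lean-parent and from 4.24 to 4.78 over the obese-father male arrays. Of these markers 5 were above and 3 below 0, with 1 higher and 1 lower at an unadjusted p under 0.05, where 4.3% and 10.4% of all genes were. The mean level of the 8 trophectoderm markers ran from 4.42 to 4.87 and from 4.63 to 5.26, with 6 of 8 above 0 and 1 higher at that level. The mean level of the 11 cumulus and granulosa markers ran from 2.69 to 3.15 and from 2.42 to 2.81, with 4 of the 9 tested genes lower at an unadjusted p under 0.05, where 10.4% of all genes were. None of these markers passed in limma, and their part in the differences was not tested. The signal spread also differed, at 1.38 in lean-parent and 1.56 in obese-father males, and its part in the marker levels was not tested.

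The Dppa3 difference depended on arrays, on the probe set and on the signal spread. With 1 array left out at a time it ran from 0.90, without lean-parent male array 4, to 2.46. The probe set of lower mean gave 0.14 (SE 0.87, limma adjusted p = 0.938 over 14421 probe sets). In lean-parent males the signal spread was 1.38 ± 0.12 and in those of obese fathers 1.56 ± 0.11 (n = 4 per group, two-sided exact permutation p = 0.114). With the spread as a covariate, the Dppa3 difference was 0.17 (limma adjusted p = 0.973) and that of Khdc3 turned from 0.86 to -0.23 (adjusted p = 0.885). Those of Tle6 and Padi6 turned from -0.09 to 0.10 and 0.16, with adjusted p of 0.936 and 0.886.

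In females, obese-father embryos differed from lean-parent embryos by -0.83 (Dppa3) to 0.10 (Nlrp5), with 3 members above and 5 below 0 and a median of -0.12, against 0.02 over all genes tested. No member passed in limma, where 0% of all genes did, and 0 of 8 had an unadjusted p under 0.05, against 2.84% of all genes. Zbed3 had the smallest p, at -0.25 (SE 0.16, 95% interval -0.59 to 0.08, limma adjusted p = 0.9997). Averaged over both sexes, the obese-father difference was largest for Khdc3, at 0.48 (SE 0.39, adjusted p = 0.656), and it turned to -0.09 with the signal spread as a covariate. Here again 0 of 7 tested members passed, against 0% of all genes, and 0 of 8 had an unadjusted p under 0.05, against 7.41%.

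**Figure D2:**
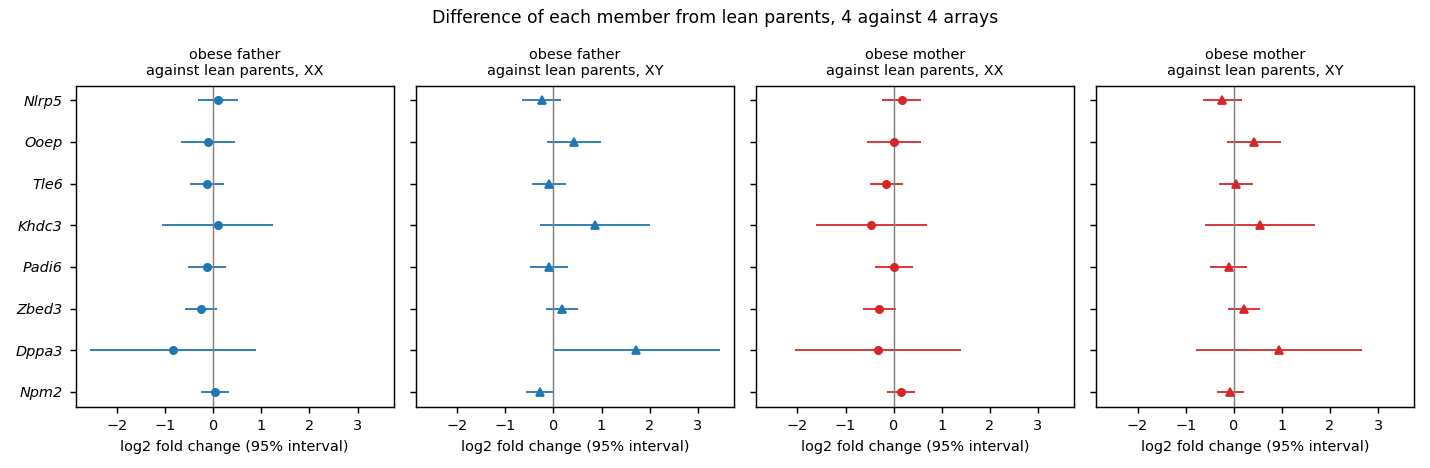
Log2 fold change of each member from lean parents with its 95% interval from limma, for obese fathers and obese mothers in female (XX) and male (XY) embryos, 4 against 4 arrays. Every interval crosses 0, the nearest to clearing it being Dppa3 in obese-father males at 1.72, and the intervals of Dppa3 and Khdc3 are the widest.

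Offspring of an obese mother were set against those of lean parents because maternal-effect transcripts are first made in the oocyte. Whether the transcripts measured in these blastocysts came from the oocyte was not tested. In males, the differences from lean parents ran from -0.24 (Nlrp5) to 0.95 (Dppa3, SE 0.83), with 5 members above and 3 below 0 and a median of 0.13, against -0.01 over all genes tested. No member passed in limma, against 0% of all genes, and 0 of 8 had an unadjusted p under 0.05, against 1.7%. Ooep had the smallest p, at 0.41 (SE 0.27, 95% interval -0.15 to 0.97, adjusted p = 0.9998). The probe set of lower mean put Dppa3 at -0.25 in place of 0.95.

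In females, the differences ran from -0.46 (Khdc3) to 0.17 (Nlrp5), with 4 members on each side of 0 and a median of -0.07, against 0.05 over all genes tested. No member passed in limma, against 0% of all genes, and 0 of 8 had an unadjusted p under 0.05, against 2.19%. Zbed3 had the smallest p, at -0.29 (SE 0.16, 95% interval -0.63 to 0.04, limma adjusted p = 0.999). Averaged over both sexes the 8 differences lay between -0.06 and 0.31, with 0 passing (0% of all genes) and 0 at an unadjusted p under 0.05 (1.52%). For the steadiest member above the table median, Zbed3, that average was -0.04 with a 95% interval of -0.28 to 0.20. For Dppa3 the interval ran from -0.91 to 1.53, so shifts of that size would not have been detectable with these pools.

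Obese mothers and obese fathers were also set against each other. In males the differences (mother minus father) ran from -0.78 (Dppa3) to 0.20 (Npm2), and in females from -0.55 (Khdc3) to 0.51 (Dppa3). No member passed in limma in either sex, where 0.00751% and 0% of all genes did, nor had any an unadjusted p under 0.05, where 8.35% and 3.25% did. Without obese-father female array 22 the Khdc3 difference in females was 0.10. When the fit included the signal spread, Dppa3 in females went from 0.51 to 1.13 (unadjusted p = 0.0113, limma adjusted p = 0.996). In males Khdc3 then turned from -0.31 to 0.45 (unadjusted p = 0.0470, limma adjusted p = 0.867) and Dppa3 from -0.78 to 0.31 (adjusted p = 0.956). Npm2 was the 1 member whose arrays did not overlap, with obese-father males at 2.005, 1.96, 1.88 and 1.95 and obese-mother males at 2.22, 2.05, 2.31 and 2.02 (0.20, SE 0.14, exact permutation p = 0.0286, the smallest that 4 against 4 arrays allow). Of all genes tested 6.84% did not overlap there, 5.57% with the obese-mother arrays above. The limma adjusted p of Npm2 was 0.624 in the fit of all genes, and all 8 of these arrays lay below the table median. The signal spread of these groups was 1.56 ± 0.11 and 1.43 ± 0.10 (exact permutation p = 0.229), and a fit that included this spread gave 0.09 for Npm2.

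Male and female embryos were compared within each kind of parents. With lean parents, Ooep was the 1 member whose arrays did not overlap, at 4.14 ± 0.13 in males and 4.59 ± 0.23 in females, a difference of -0.46 (SE 0.27, exact permutation p = 0.0286, the smallest possible). Of all genes tested 2.19% did not overlap in this comparison, and 0.481% had every male array below every female array. In limma Ooep did not pass (adjusted p = 0.992), and the difference was 0.08 with obese fathers and -0.06 with obese mothers. Dppa3 differed by -1.49 between the lean-parent sexes (SE 0.83, 95% interval -3.22 to 0.24, limma adjusted p = 0.992). With 1 array left out at a time this ran from -2.22 to -0.67, the latter without lean-parent male array 4. It was -0.75 with the signal spread in the fit, and -0.24 in the probe set of lower mean. Khdc3 turned there from -0.31 to 0.22 with the spread in the fit.

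In the other sex comparisons, members differed by -0.17 to 1.07 with obese fathers and by -0.22 to 0.71 with obese mothers. The smallest p in both belonged to Zbed3, at 0.23 (SE 0.16, adjusted p = 0.843) and 0.31 (SE 0.16, adjusted p = 0.9999). No member passed in limma in the 3 comparisons, where 0%, 0.00751% and 0% of all genes did, and none had an unadjusted p under 0.05, where 3.37%, 5.42% and 1.41% did. Averaged over all parents, the male minus female differences lay between -0.22 (Dppa3) and 0.29 (Khdc3), with 0 passing (0% of all genes), 0 at an unadjusted p under 0.05 (2.17%) and Zbed3 nearest at 0.11 (SE 0.09, adjusted p = 0.9998).

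The test of whether the effect of an obese parent differs between the sexes gave the 2 values with an unadjusted p under 0.05 among the members. For an obese father it was Dppa3, whose difference from lean parents was 1.72 in males and -0.83 in females, an interaction of 2.56 (SE 1.18, 95% interval 0.12 to 5.002, unadjusted p = 0.0409). The limma adjusted p was 0.654, and 7.54% of all genes tested had an unadjusted p under 0.05, while 0% passed. The interaction was 0.21 (SE 1.23) in the probe set of lower mean. It was 1.05 once the fit included the signal spread. With 1 array left out at a time it ran from 1.74, without lean-parent male array 4, to 3.29.

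For an obese mother it was Zbed3, whose difference from lean parents was 0.22 in males and -0.29 in females, an interaction of 0.51 (SE 0.23, 95% interval 0.04 to 0.98, unadjusted p = 0.0362). It did not pass in limma (adjusted p = 0.9999), where 0% of all genes did and 2.58% had an unadjusted p under 0.05. The corresponding differences with an obese father were 0.18 in males and -0.25 in females. These comparisons share the lean-parent arrays, so their likeness is no separate evidence. With the spread as a covariate the Zbed3 interactions were 0.58 for obese mothers (adjusted p = 0.873) and 0.53 for obese fathers (adjusted p = 0.427).

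Over all 112 member differences (8 members in 14 comparisons), the fit with the spread as covariate turned the direction of 26. It gave 8 an unadjusted p under 0.05, against 2 without it, where all genes tested had 6.01% and 4.6% over the same comparisons. In that fit 0 of 7 tested members passed in limma, the smallest adjusted p being 0.427. Of the 8 values, those not given above were Dppa3 in obese-father females (-0.88), Zbed3 in obese-mother females (-0.33), and Khdc3 (0.50) and Zbed3 (0.33) between the sexes with obese mothers.

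The members were set against the signal spread of the array. Khdc3 rose with the signal spread over the 24 arrays (Pearson r = 0.923, Spearman rho = 0.920), as did Dppa3 (0.846 and 0.956), both at the smallest permutation p that 100000 draws allow, 1e-05, and at an adjusted p of 0.000180 for r. Ooep rose less closely (0.558 and 0.570, permutation adjusted p = 0.0132). Npm2 (-0.686 and -0.752, adjusted p = 0.00166) and Padi6 (-0.639 and -0.593, adjusted p = 0.00351) went the other way. So did Nlrp5 (-0.543 and -0.531) and Tle6 (-0.542 and -0.377), both at an adjusted p of 0.0156 for r. The rho of Tle6 did not pass (permutation adjusted p = 0.128). Zbed3 did not follow the spread (-0.129 and -0.0974, adjusted p = 0.599). Adjustment was over 36 relations, the 8 with the spread and 28 between members.

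The spread is computed from the same arrays, whose means barely differ. Array medians moved more, at 2.65 on array 4, of the narrowest spread, and 2.43 and 2.36 on arrays 12 and 22, of the widest. The part of this shift in the relations of members with the spread was not tested. A wider spread means values farther from the array mean over all probe sets together, which does not fix the direction of any single gene. Khdc3, Ooep and Dppa3, which rose with the spread, lie above the table median on 24, 24 and 23 arrays. Zbed3 lies above it on 24 as well and did not rise. Among the members that fell, Nlrp5 lies above it on 21 arrays, Tle6 on 13, Padi6 on 4 and Npm2 on 0. The mean of Nlrp5 over all arrays, 2.80, lies under the array means of 2.82 to 2.86. Taken as deviations from each group's mean, the members gave r of 0.935 for Khdc3, 0.879 for Dppa3, 0.579 for Ooep, -0.598 for Npm2, -0.675 for Padi6, -0.524 for Nlrp5 and -0.592 for Tle6. For Zbed3 it was -0.342 (permutation adjusted p = 0.141), farther from 0 than over the values as deposited (-0.129). Once the 2 arrays whose spread lay farthest from the median were left out, Nlrp5 (-0.466, adjusted p = 0.0678) and Tle6 (-0.206, adjusted p = 0.495) no longer passed. Over all arrays their r had been -0.543 and -0.542, so the value of Tle6 depended on these 2 arrays and that of Nlrp5 moved less. The other 5 still passed, with r of 0.863 for Khdc3, 0.916 for Dppa3, 0.524 for Ooep, -0.537 for Padi6 and -0.765 for Npm2.

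**Figure D3:**
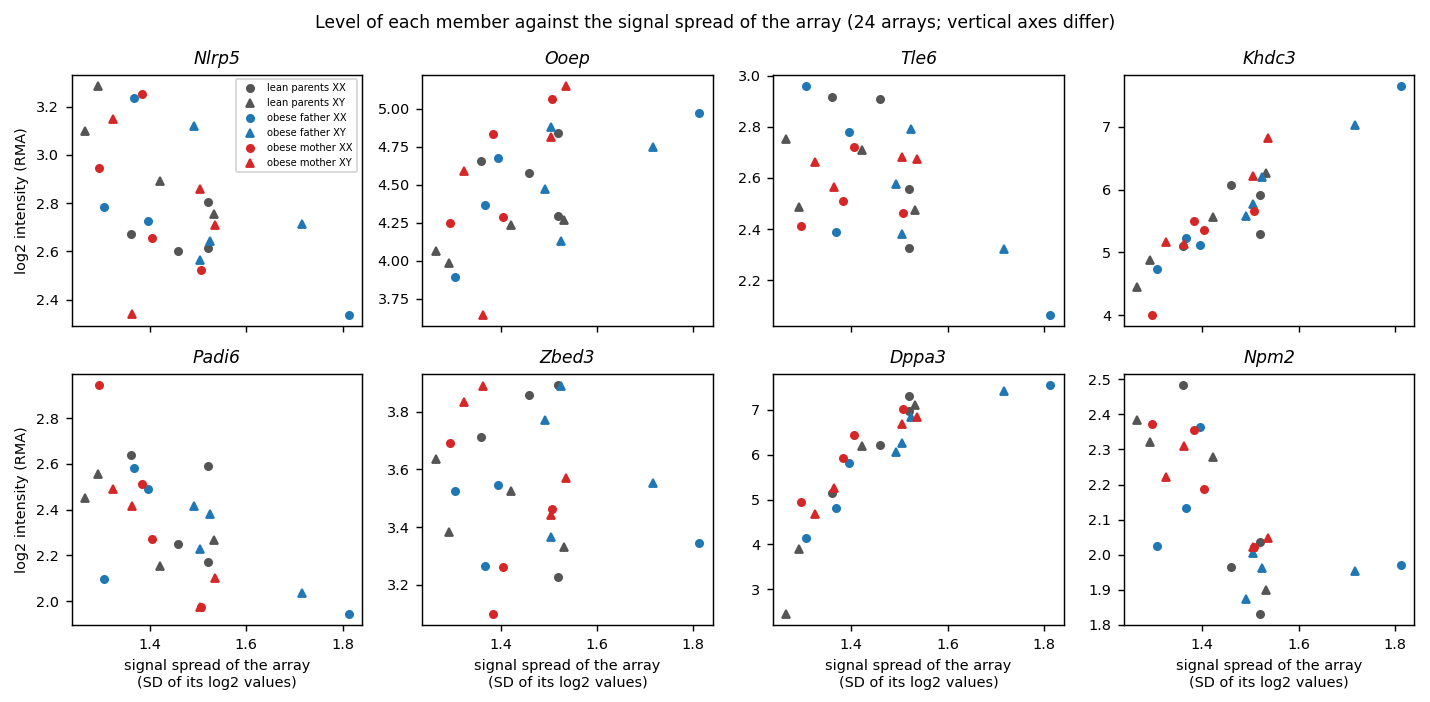
Log2 intensity of each member against the signal spread of its array, the standard deviation of all log2 values on it, for 24 arrays (circles XX, triangles XY; colours as named in the key). Khdc3 and Dppa3 climb with the spread (r = 0.923 and 0.846), Npm2 and Padi6 decline (-0.686 and -0.639), and Zbed3 shows no trend (-0.129).

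Between members, 9 of 28 pairs had an adjusted p under 0.05, 4 positive and 5 negative. Khdc3 and Dppa3 were the closest pair (r = 0.773, rho = 0.848, permutation adjusted p = 0.000600), and each also went with Ooep (0.535 and 0.567). Padi6 and Npm2 went together (0.613, adjusted p = 0.00684). The negative pairs joined Khdc3 with Padi6 (-0.724) and Npm2 (-0.648), and Dppa3 with Npm2 (-0.638), Nlrp5 (-0.561) and Padi6 (-0.508). Of the 6 pairs among the core members Nlrp5, Ooep, Tle6 and Khdc3, that of Ooep and Khdc3 was the 1 that passed. Without the 2 arrays farthest from the median of the second gene, that pair (r = 0.485) and those of Ooep with Dppa3 (0.488) and Nlrp5 with Dppa3 (-0.438) no longer passed.

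Once the signal spread was removed from each member by regression, 0 of 28 pairs passed by permutation. The pair of Khdc3 and Dppa3 went from 0.773 to -0.04, and that of Ooep and Khdc3 from 0.535 to 0.06. The largest remaining values were those of Tle6 with Zbed3 (0.453) and of Khdc3 with Padi6 (-0.453), each with an unadjusted permutation p of 0.027 and an adjusted p of 0.379.

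**Figure D4:**
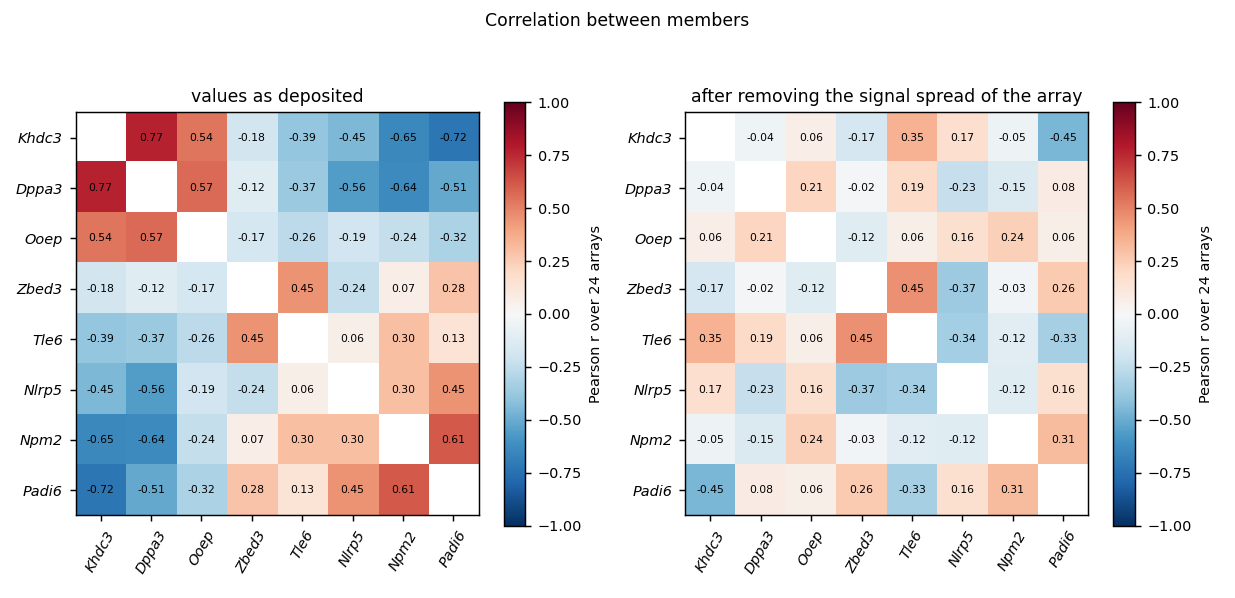
Pearson correlation between members over 24 arrays, for the values as deposited (left) and after each member was regressed on the signal spread of the array (right). On the left Khdc3, Dppa3 and Ooep form a positive block (0.535 to 0.773). Khdc3 and Dppa3 are negative with Padi6 and Npm2 (-0.508 to -0.724), and Dppa3 with Nlrp5 (-0.561). Ooep is only weakly negative with Padi6, Npm2 and Nlrp5 (-0.188 to -0.319). On the right the largest values in either direction are 0.453 and -0.453.

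For each tested member the 3 genes whose levels ran most like it over the 24 arrays were found, and none of these 21 genes was another member or on a list used here. For Khdc3 they were the ATP synthase subunit Atp5a1 (r = 0.943), S100a11 (0.937) and Hnrnpf (0.935), and after removing the spread these values were 0.610, 0.515 and 0.501. For Dppa3 they were Tpt1 (0.961), the ferritin heavy chain Fth1 (0.960) and Rnf7 (0.958), with 0.854, 0.854 and 0.900 left after removal. For Ooep they were Akirin2 (0.744), the kinetochore gene Spc24 (0.721) and Dph3 (0.704). For Zbed3 they were Gatb (0.712), the Mediator subunit Med1 (0.644) and Olfr48 (0.638). For the dimmer members the highest values were 0.802 (Nlrp5 with Itgad), 0.781 (Tle6 with Tnfsf4) and 0.833 (Padi6 with Pltp). These are the highest values among all genes tested and describe these arrays.

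Relatives and partners of the members were counted in the same comparisons. Of 29 relatives of the NLRP, KHDC1 and DPPA5, PADI, nucleoplasmin, TLE and ZBED families, 23 were measured and 12 tested. Of the measured, 6 (Dppa5a, Padi4, Npm1, Tle1, Tle2 and Tle3) exceeded the table median on all 24 arrays and 9 on none. In limma 0 of 12 passed in any of the 4 comparisons of an obese parent with lean parents. With an unadjusted p under 0.05 there were 2 higher and 2 lower for obese-father males (median -0.18, against -0.11 over all genes tested), 1 lower for obese-mother males and 0 in females. Over all genes tested, 4.3% were higher and 10.4% lower in that sense for obese-father males, 1.95% and 0.886% for obese-father females, 0.601% and 1.1% for obese-mother males, and 1.65% and 0.541% for obese-mother females. Dppa5a, the KH-type neighbour of Ooep, named here after its values were seen, was among those higher for obese-father males, at 1.87 (SE 0.69, adjusted p = 0.316). It stood at -0.48 (SE 0.69) in obese-father females.

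Of 25 other maternal-effect genes, such as Zar1, Trim28 and Dnmt1, 24 were measured, 19 tested and 12 above the table median on all arrays. None passed in limma, and 3, 0, 1 and 1 were higher at an unadjusted p under 0.05 for obese-father males and females and obese-mother males and females, with 0 lower. Of all genes tested 4.3%, 1.95%, 0.601% and 1.65% were higher in that sense, and 10.4%, 0.886%, 1.1% and 0.541% lower. The medians were 0.19, 0.12, 0.07 and -0.03, against -0.11, 0.02, -0.01 and 0.05 over all genes tested. Of 24 oocyte transcripts 21 were measured and 10 tested. Mos, Pabpn1l and Ybx2 exceeded the table median on all 24 arrays and 9 of the 21 on none, as Npm2. None passed, and 0 were higher and 2 lower (Mos and Pabpn1l) at an unadjusted p under 0.05 for obese-father males, where 10.4% of all genes were lower. In the other 3 comparisons there were 0.

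Of 17 genes for proteins known or proposed to act with the complex (cofilin and actin, 14-3-3 proteins, protein kinase A, axin and others), all 15 measured were tested. None passed, while 6 were higher at an unadjusted p under 0.05 for obese-father males (median 0.56), 1 for obese-mother males (0.19) and 0 in females (-0.03 and -0.17). Over all genes tested 4.3%, 0.601%, 1.95% and 1.65% were higher in that sense for obese-father males, obese-mother males, obese-father females and obese-mother females. Medians over all genes, in the same order, were -0.11, -0.01, 0.02 and 0.05. Of the partners, 10 exceeded the table median on all 24 arrays. The part of the signal spread, 1.56 in obese-father and 1.38 in lean-parent males, was not tested for these genes. In the interaction with an obese mother, where Zbed3 had the smallest p of any member, the smallest p of these lists belonged to Nlrp4c (-0.52), Dppa5a (1.45) and Padi4 (-0.32) among relatives. They belonged to Smarca4 (-0.49), Ube2a (0.67) and Pou5f1 (1.25) among maternal-effect genes. Among oocyte transcripts they were Ybx2 (-0.38), Pabpn1l (-0.38) and Zp3 (-0.28), and among the partners Actb (1.91), Cfl2 (0.49) and Ywhab (1.04). All 12 had a limma adjusted p of 0.9999. Of the 10 oocyte transcripts 1 was lower at an unadjusted p under 0.05, where 2.58% of all genes tested were higher or lower.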

How the data were processed

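Each array (Affymetrix platform, biotin-labelled cDNA amplified from embryo lysate with NuGEN kits, per the labels' protocols) measured 1 pool. The authors deposited 1 log2 intensity per probe set and array. RMA and affy are the tools named in the submitters' processing notes, with versions and genome build not given in the sources used here. Of 35556 probe sets, 21789 had 1 gene symbol in GEO's platform annotation, 1621 several and 12146 none, and the last 2 kinds were not named. The set with the highest mean was used per gene.

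One mean per group was fitted to all 24 arrays with limma 3.58.1 in R 4.3.3 (lmFit, eBayes, no covariate), with Benjamini-Hochberg adjustment over 13311 genes and a threshold of 0.05. The fit was also run on simulated data with independent noise for each gene. That setting lacks the signal spread shared by the genes of an array. Genes named are the members with an unadjusted p under 0.05 or the smallest p of a comparison, the 3 genes most like each member, and the 3 of each list with the smallest p in 1 comparison. Members and lists were chosen with earlier results of these data known. Alternatives covered the filter, probe sets, prior, weights, scaling, spread, groups fitted and each array left out.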

Additional observations from a re-analysis of the deposited data

Results flagged for a closer look

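One value of the 48 sets of 4 arrays (8 members in 6 groups) stood apart from the rest of its group by Dixon's ratio. Tle6 was 2.56 on obese-mother male array 7, against 2.66 on the nearest of the other 3 arrays, a gap that made up 0.854 of the group's range, above Dixon's critical value for 4 arrays. Chance flags about 1 in 20 such groups. The group was narrow, with an SD of 0.05, and the array lies within the range of every other group.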

How the results depend on the processing

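No member passed in any of 313 counts, each for 1 of the 14 comparisons under 1 alternative. A single fit gave several of these counts, and the alternative threshold of 0.10 reused the main fit. The smallest limma adjusted p of a member was 0.0945 (Dppa3, obese-father interaction, with array weights), and it was 0.126 without obese-father female array 22. Of 299 values of the 14 named differences under the alternatives, 294 kept their direction without a call. Exceptions were all Khdc3: obese mother against obese father in females (-0.55) became 0.0559 with array weights and 0.10 without the 2 arrays of the widest spread, and ran from -0.87 to 0.10 when 1 array was left out, being 0.10 without obese-father female array 22. The obese-father average over both sexes (0.48) became -0.0866 with the signal spread as a covariate and -9.12e-05 without the 2 widest arrays. The count of relations with an adjusted p under 0.05 went from 16 of 36 to 0 of 28 after removing the spread, where Khdc3 with Dppa3 turned to -0.0393 and Padi6 with Dppa3 to 0.0799. Both this removal and the other Dppa3 probe set were chosen after seeing the data. Npm2 failed every filter and was refitted only without one. Padi6 left the test with the stricter filter of 12 arrays. The fit with the groups of the comparison alone was not run for the sex difference over all parents, which uses all groups. No paired analysis was possible because the labels do not say which mother a pool came from. Female and male pools that may share a mother were therefore treated as independent. Nlrp5, Tle6, Padi6 and Npm2 lie near or under the table median, which limits what a difference in them can show.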
